A study of Homo sapiens with 9 samples.

Results

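The aryl hydrocarbon receptor (AHR) and 4 genes of its response were described in A498, an established human cell line from clear cell renal cell carcinoma (ccRCC). The 5 genes were chosen by name out of 27673 genes in the count table, by a rule that uses no measured value. Earlier results of these data were known at that choice. The genes are AHR itself, its repressor AHRR, and the targets CYP1A1, CYP1B1 and TIPARP. All 5 have a row in the table, and 4 of them passed the filter on low counts, which left 15551 genes for testing. CYP1A1 did not pass.

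The cells carried 1 of 3 lentiviral short hairpin RNAs (shRNAs), namely a control hairpin (shControl), a hairpin against BMAL1 (shBMAL1) or a hairpin against ARNT (shARNT). All groups were selected for 1 week with 2.5 µg/mL puromycin and kept in 1.25 µg/mL. Each group held 3 libraries labelled as biological replicates, so there were 9 libraries in all, and no time course or drug treatment was part of these samples. Each gene was depleted with a single hairpin, so an effect of the hairpin sequence cannot be told apart from an effect of the depleted gene.

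AHR is a transcription factor of the bHLH-PAS family that is activated by small molecules, among them dioxins, polycyclic hydrocarbons and products of tryptophan breakdown. Without a ligand it rests in the cytoplasm with the chaperones HSP90 and p23. With a ligand it enters the nucleus, pairs with ARNT and binds xenobiotic response elements with the core GCGTG. AHRR resembles AHR, also pairs with ARNT and restrains the response. CYP1A1 and CYP1B1 are monooxygenases that oxidise many AHR ligands, and TIPARP is an ADP-ribosyltransferase that adds a further brake on AHR. ARNT is also the partner of HIF2α, and BMAL1 is a close relative of ARNT that pairs with CLOCK at E-boxes, whose core is CACGTG. The comparisons asked how AHR and its targets differed when its partner ARNT, or the relative BMAL1, was depleted.

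Promoters are shown for the 3 tested members with an entry in the RefSeq table, because AHR and AHRR rose in both depletions while TIPARP fell in both. Each sequence holds the 250 bases upstream of the RefSeq start (build GRCh38.p14, plus strand), 5′ to 3′. Capitals mark matches of either strand to the cores GCGTG (read as CACGC on the other strand) and CACGTG. The AHR window lies at chr7:17298402-17298651, the AHRR window at chr5:321464-321713 and the TIPARP window at chr3:156674340-156674589. AHRR and TIPARP have further start sites, and the first listed is shown.
AHR: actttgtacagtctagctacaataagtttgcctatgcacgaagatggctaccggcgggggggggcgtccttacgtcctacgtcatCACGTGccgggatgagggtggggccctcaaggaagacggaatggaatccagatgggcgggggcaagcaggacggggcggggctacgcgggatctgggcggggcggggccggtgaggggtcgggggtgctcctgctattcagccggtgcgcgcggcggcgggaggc
AHRR: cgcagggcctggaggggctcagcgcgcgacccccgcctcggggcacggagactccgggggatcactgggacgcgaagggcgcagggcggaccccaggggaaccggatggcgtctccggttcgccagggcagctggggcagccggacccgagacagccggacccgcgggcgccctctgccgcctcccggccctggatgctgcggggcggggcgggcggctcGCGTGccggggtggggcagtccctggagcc
TIPARP: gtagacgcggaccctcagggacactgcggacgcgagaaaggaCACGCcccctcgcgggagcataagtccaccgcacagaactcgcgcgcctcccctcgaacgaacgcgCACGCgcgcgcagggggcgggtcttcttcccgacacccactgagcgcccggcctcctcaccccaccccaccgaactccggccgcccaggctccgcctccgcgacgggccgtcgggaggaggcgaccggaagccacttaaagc

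The AHR window held no GCGTG and a single CACGTG, whose first base lies 165 bases upstream of the start. The AHRR window held 1 GCGTG, starting 30 bases upstream. With the 2 bases before it this match also fits the longer element TNGCGTG, as TCGCGTG. The TIPARP window held 2 matches to GCGTG on the minus strand, whose leftmost bases lie 208 and 142 bases upstream, and no TNGCGTG. At the further start sites, AHRR window 2 held 2 matches to GCGTG and no TNGCGTG, and TIPARP windows 2 and 3 held neither.

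Over the first windows of 27305 genes, 31.9% held GCGTG on either strand, 4.53% held TNGCGTG and 6.49% held CACGTG. The search also took in ACGTG, which lies within CACGTG and was found in 18.7% of windows. The CYP1A1 window held GCGTG 57 bases upstream and ACGTG on the minus strand 48 bases upstream. CYP1B1 had no entry in the table of promoters. A match is a description of the letters in the window and not a measurement of binding.

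Library totals were even, from 35269870 to 36099096 counts. Levels are given as CPM, the counts put on a common library size after scaling with edgeR's TMM factors. These factors lay between 0.932 and 0.944 for shControl, between 0.961 and 0.971 for shBMAL1 and between 1.10 and 1.11 for shARNT, so shARNT stood apart. With library size alone, the median of all genes moved up on the log2 scale by 0.24 in shARNT against shControl, by 0.05 for shBMAL1 and by 0.19 between the depletions. All changes below are on the TMM scale, and a direction that depends on it is named. The summed level of 7 renal epithelial and ccRCC markers reached 7966 to 8021 CPM for shControl, 5861 to 6329 CPM for shBMAL1 and 2210 to 2380 CPM for shARNT, and none was at 0 in every library. VIM made up most of this sum in shControl and shBMAL1, with mean levels of 5974 and 4309 CPM against 812 CPM in shARNT, and 2 markers of the list, PAX8 and KRT18, named like VIM after their values were seen, did not fall with it in shARNT. PAX8 rose 2.79-fold there (edgeR adjusted p = 1.99e-14), and KRT18 was at 99.5% of control on the TMM scale (adjusted p = 0.872). The rest of the list fell in shARNT like VIM, with CA9 at 1.39% of control, KRT8 at 59.4%, PAX2 at 68.1% and CDH2 at 68.3%. The summed level of 4 immune markers was at most 0.759, 1.26 and 0.202 CPM in shControl, shBMAL1 and shARNT, with CD3E at 0 throughout. For 3 endothelial markers it was at most 0.304, 0.323 and 0.151 CPM. For 3 fibroblast and pericyte markers it was 2.25 to 2.58 CPM for shControl, 0.497 to 0.522 CPM for shBMAL1 and 0.151 to 0.227 CPM for shARNT, with LUM at 0 throughout. PDGFRB alone made up most of this sum, with mean levels of 2.20 CPM in shControl, 0.439 CPM in shBMAL1 and 0.168 CPM in shARNT. The part of these marker shifts in the results was not tested.

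The targeted genes came first. ARNT, the partner of AHR, had 1603, 1667 and 1738 counts in shControl, 1128, 1147 and 1038 in shBMAL1, and 369, 361 and 395 in shARNT. The 3 groups did not overlap, and shARNT was lowest. ARNT was thus at 18.8% of its control level in shARNT (log2 fold change -2.41, SE 0.0667, adjusted p = 1.35e-17 by the quasi-likelihood test of edgeR) and at 63.9% in shBMAL1 (-0.65, SE 0.0599, adjusted p = 1.54e-08). BMAL1, listed under its older symbol ARNTL, had 556, 524 and 536 counts in shControl, 185, 191 and 140 in shBMAL1, and 948, 993 and 893 in shARNT. Its level fell to 30.9% of control in shBMAL1 (edgeR, adjusted p = 1.94e-11) and was 1.46 times control in shARNT (adjusted p = 8.27e-06). The transcript of the AHR partner was therefore lower in both depletions than in shControl, and lower in shARNT than in shBMAL1. Protein was not part of these data. In another ccRCC line, the paper's immunoblot showed slightly more ARNT protein when BMAL1 was depleted.

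Many genes changed in these cells. At an adjusted p under 0.1, 81.8% of all genes tested were called in shARNT against shControl (40.5% higher and 41.3% lower), 63.3% in shBMAL1 against shControl (31.9% higher and 31.5% lower), and 81.2% in shARNT against shBMAL1 (40.1% higher and 41.1% lower). With library size alone, the share of calls that were higher moved from 49.6% to 60.5% in shARNT against shControl, from 50.3% to 55.8% in shBMAL1 against shControl, and from 49.4% to 58.6% between the depletions. Of the 4 members tested, 4 were called in each comparison with shControl, 2 higher and 2 lower, and 3 between the depletions, 1 higher and 2 lower. With so many genes called in general, the counts of members called are close to the background. The sizes and directions of the single members are what the data offer. Both comparisons with shControl share the same control libraries.

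**Figure D1:**
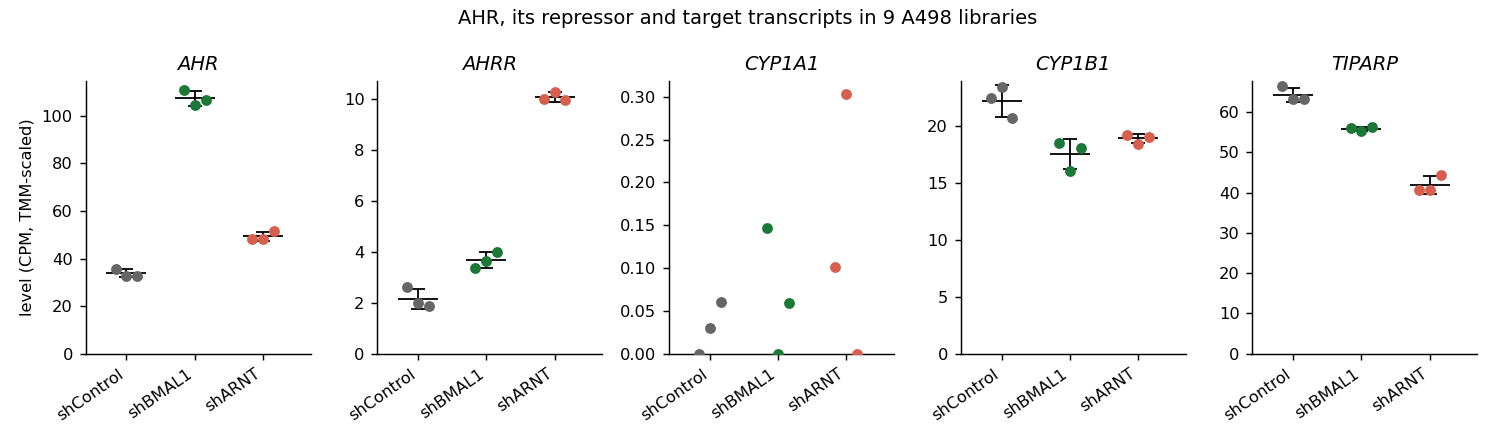
Level of each member in CPM (vertical axis, from 0, with its own scale in each panel) in the 3 libraries of shControl, shBMAL1 and shARNT. Points are libraries, and the horizontal bar and whiskers are the mean and SD (not drawn for CYP1A1, which has 12 counts or fewer in every library). AHR is highest in shBMAL1, AHRR is highest in shARNT, and TIPARP is lowest in shARNT.

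AHR, the receptor (chr7:17338276-17385771, plus strand, GRCh37), had 1188, 1081 and 1084 counts in the shControl libraries, 3787, 3604 and 3628 in shBMAL1, and 1904, 1914 and 2044 in shARNT. The groups did not overlap, and all 3 shBMAL1 libraries stood well above the rest. On the CPM scale the means were 33.8 ± 1.65 in shControl, 107 ± 3.13 in shBMAL1 and 49.3 ± 1.89 in shARNT (SD, n = 3 each). AHR thus rose 3.18-fold in shBMAL1 (log2 fold change 1.67, SE 0.0524, edgeR adjusted p = 1.35e-15) and 1.46-fold in shARNT (0.55, SE 0.0531, adjusted p = 9.40e-09).

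The difference between the depletions was itself tested. AHR was 2.18-fold lower in shARNT than in shBMAL1 (log2 fold change -1.12, SE 0.0504, edgeR adjusted p = 3.67e-14). Its order of levels was therefore shControl, shARNT and shBMAL1, and each neighbouring pair in this order differed beyond the spread of the libraries. Among all genes tested, 96.7% had a smaller absolute log2 fold change than AHR in shBMAL1 against shControl, but only 42.7% did in shARNT against shControl. In these bulk libraries, a change in the share of cells that make a transcript and a change in its amount per cell cannot be told apart.

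AHRR, the repressor (chr5:321829-438400, plus strand, GRCh37), had 87, 65 and 62 counts in shControl, 115, 126 and 136 in shBMAL1, and 397, 407 and 395 in shARNT. Again the groups did not overlap, but here the shARNT libraries were the highest. The mean levels were 2.15 ± 0.400 CPM, 3.67 ± 0.318 CPM and 10.1 ± 0.179 CPM (SD, n = 3 each). AHRR rose 4.67-fold in shARNT (log2 fold change 2.22, SE 0.138, edgeR adjusted p = 6.80e-12) and 1.70-fold in shBMAL1 (0.77, SE 0.151, adjusted p = 2.01e-04).

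AHRR was 2.75-fold higher in shARNT than in shBMAL1 (log2 fold change 1.46, SE 0.128, edgeR adjusted p = 1.89e-09), the opposite order to AHR. The order shControl, shBMAL1 and shARNT held between each neighbouring pair. Of all genes tested, 93.3% had a smaller absolute log2 fold change than AHRR in shARNT against shControl. The annotation also holds a read-through gene, PDCD6-AHRR, which begins at the gene PDCD6 upstream and runs across AHRR, and it has no row of its own in the table. PDCD6, chosen after its values were seen, had a log2 fold change of 0.32 in shARNT (SE 0.0429, edgeR adjusted p = 1.01e-06) and 0.11 in shBMAL1 (SE 0.0432, adjusted p = 0.0314). PDCD6 had 4159 to 4506 counts per library in shControl and 6498 to 6515 in shARNT, far more than AHRR. Its fold change therefore cannot show whether read-through contributed to the counts of AHRR, which was not tested. How reads of a read-through transcript were counted was not stated.

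TIPARP, the ADP-ribosyltransferase (chr3:156392379-156424559, plus strand, GRCh37), had 2209, 2082 and 2087 counts in shControl, 1919, 1903 and 1911 in shBMAL1, and 1608, 1605 and 1761 in shARNT. The groups did not overlap, and the order was the reverse of that of AHRR. The mean levels were 64.3 ± 1.81 CPM in shControl, 55.8 ± 0.530 CPM in shBMAL1 and 41.8 ± 2.18 CPM in shARNT (SD, n = 3 each). TIPARP fell to 65.1% of control in shARNT (log2 fold change -0.62, SE 0.0513, edgeR adjusted p = 7.86e-10) and to 86.9% in shBMAL1 (-0.20, SE 0.0509, adjusted p = 0.00201).

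The difference between the depletions was again beyond the spread, with TIPARP at 74.9% in shARNT of its level in shBMAL1 (log2 fold change -0.42, SE 0.0515, edgeR adjusted p = 3.36e-07). Its order was shARNT, shBMAL1 and shControl, with each neighbouring pair called. The share of genes with a smaller absolute log2 fold change than TIPARP was 47.5% in shARNT and 34.1% in shBMAL1, each against shControl. Between the depletions this share was 34.0%. With library size alone, the log2 fold change of TIPARP was nearer to 0, at -0.38 in shARNT against shControl and -0.23 in shARNT against shBMAL1, and both remained called. The opposite strand holds TIPARP-AS1, which overlaps TIPARP over 1212 bases and had 108 to 185 counts per library. The use of strand in counting was not stated, so reads of the pair may not be separated there.

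CYP1B1, a monooxygenase (chr2:38294652-38303293, minus strand, GRCh37), was lower in both depletions than in shControl on the TMM scale. It had 749, 770 and 683 counts in shControl, 633, 552 and 613 in shBMAL1, and 762, 730 and 756 in shARNT. The mean levels were 22.2 ± 1.38 CPM, 17.5 ± 1.32 CPM and 18.9 ± 0.407 CPM (SD, n = 3 each). In CPM both depletions lay below the control libraries without overlap, but they overlapped with each other.

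CYP1B1 fell to 79.0% of control in shBMAL1 (log2 fold change -0.34, SE 0.0755, edgeR adjusted p = 6.59e-04). A smaller absolute log2 fold change was found for 53.0% of genes in shBMAL1 and for 18.8% in shARNT, each against shControl. CYP1B1 fell to 85.3% of control in shARNT on the TMM scale (log2 fold change -0.23, SE 0.0743, edgeR adjusted p = 0.00824), whereas library size alone gave 0.0069 (adjusted p = 0.936). The fall in shARNT was thus a fall relative to the other genes of the library, and the raw counts of the shARNT and shControl libraries overlapped. Between the depletions CYP1B1 was not called, with a log2 fold change of 0.11 and a 95% interval from -0.05 to 0.27 (edgeR adjusted p = 0.186), but with library size alone it was higher in shARNT (0.30, adjusted p = 0.00125). CYP1B1-AS1 on the opposite strand had 2 to 15 counts per library, and RMDN2, which overlaps it over 170 bases on the opposite strand, had 154 to 248.

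**Figure D2:**
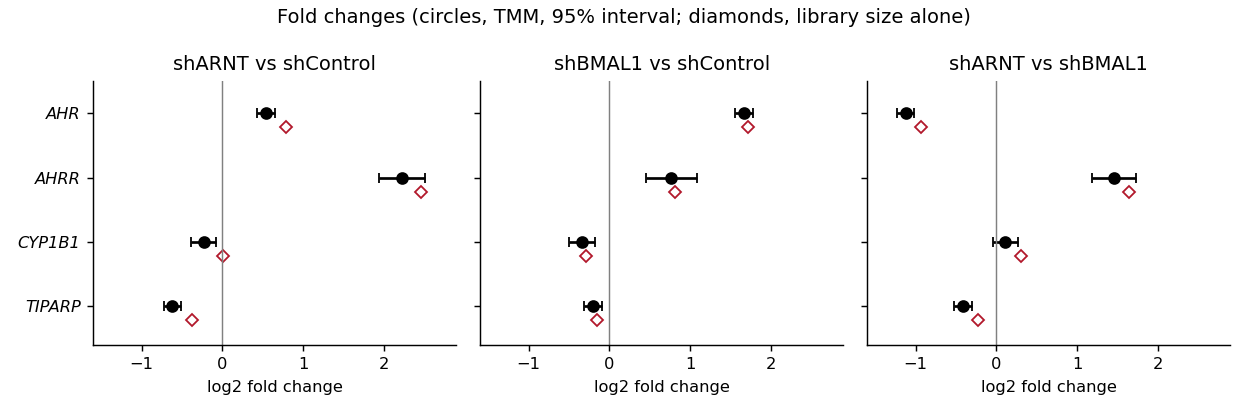
Log2 fold change (horizontal axis) of the 4 members tested, with shARNT and shBMAL1 each set against shControl and then against each other. Circles with bars are the TMM-scaled values with 95% intervals, and open diamonds are the values with library size alone. AHR and AHRR lie above 0 in both comparisons with shControl and on opposite sides of 0 between the depletions. TIPARP lies below 0 in all panels, while CYP1B1 in shARNT against shControl moves from -0.23 to 0.0069 with library size alone.

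CYP1A1, the classical AHR target (chr15:75011883-75017869, minus strand, GRCh37), was close to absent. It had 0, 1 and 2 counts in shControl, 5, 0 and 2 in shBMAL1, and 4, 12 and 0 in shARNT. Every group held a library at 0, and the groups overlapped. A count of 0 allows up to 3 counts, or 0.0831 to 0.0851 CPM of the unscaled library totals, counting error only. This takes each count as an independent fragment. Whether reads or pairs were counted was not stated, so the limit may be higher. In a fit without the filter the edgeR adjusted p was 0.140 in shARNT against shControl, 0.557 in shBMAL1 against shControl and 0.467 between the depletions, so no difference was detectable at this depth. The related enzyme CYP1A2 had no count in any of the 9 libraries.

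Per kilobase of the canonical transcript, levels can be set side by side between genes. In shControl, TIPARP was highest at 16.6 CPM per kb, followed by AHR at 5.41, CYP1B1 at 4.25, AHRR at 0.381 and CYP1A1 at 0.0116. In shBMAL1, AHR at 17.2 CPM per kb stood above TIPARP at 14.5. In shARNT, TIPARP at 10.8 CPM per kb was again above AHR at 7.90, and AHRR reached 1.78. Thus the receptor transcript passed that of its target TIPARP in shBMAL1.

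The balance of the receptor, repressor and partner transcripts shifted differently in the depletions. Per kb, AHRR amounted to 8.08%, 6.63% and 6.31% of AHR in the shControl libraries, 3.35%, 3.86% and 4.13% in shBMAL1, and 23.0%, 23.5% and 21.3% in shARNT. The groups did not overlap, with means of 7.0 ± 0.942%, 3.78 ± 0.398% and 22.6 ± 1.13% (SD, n = 3 each). The ratio of AHR to ARNT per kb was 0.506 ± 0.0467 in shControl, 2.51 ± 0.134 in shBMAL1 and 3.93 ± 0.0589 in shARNT (SD, n = 3 each). Per kb, ARNT was therefore the more abundant transcript of the pair in shControl alone. In shARNT a rise of this ratio was built into the design, because ARNT is the target of the hairpin. ARNT was at 18.8% of control there, while AHR rose 1.46-fold. These ratios are descriptions and carry no test.

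**Figure D3:**
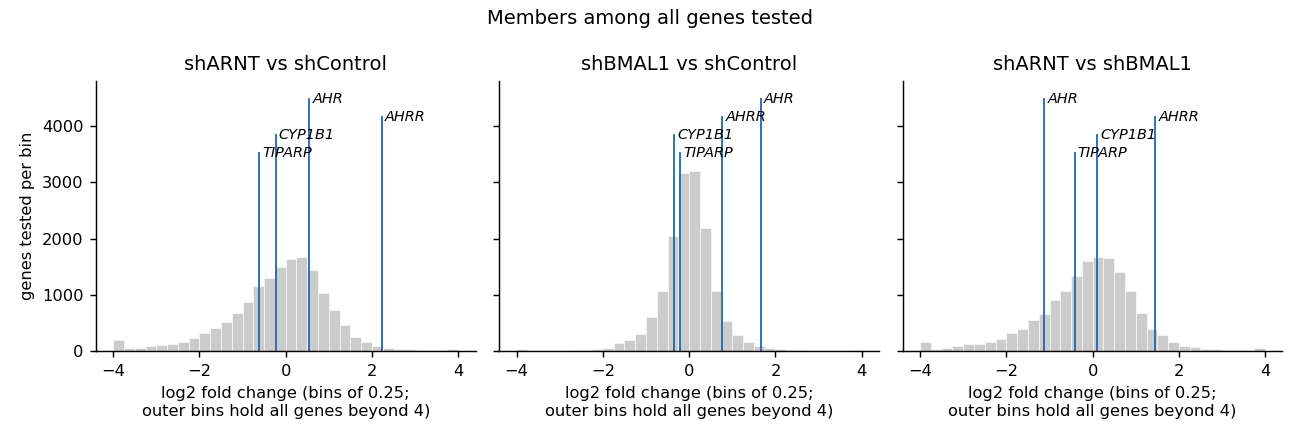
Number of genes tested (vertical axis) by log2 fold change (horizontal axis, bins of 0.25, with genes beyond 4 in the outer bins) in the 3 comparisons. Vertical lines mark the 4 members tested. AHR in shBMAL1 against shControl (1.67) and AHRR in shARNT against shControl (2.22) lie in the upper tail, while TIPARP and CYP1B1 lie within the bulk of genes.

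The profiles of the members were also compared over the 9 libraries. The root mean square difference of centred log2 CPM was 0.235 between CYP1B1 and TIPARP, the closest pair, and 14% of genes were closer to TIPARP than CYP1B1 was. It was 1.07 between AHR and AHRR and 1.18 between AHRR and TIPARP, the most distant pair. The genes most like each member were other genes, given here by the same measure over 9 libraries and 15550 genes, as a description.

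For AHR they were HEG1, a membrane receptor of cell junctions (0.0915), the kinase gene CAMK1D (0.101) and the membrane protein gene EMP1 (0.113). For AHRR they were the homeobox gene SIX4 (0.116), the DNA-binding protein gene ARID3A (0.124) and LOC101928660 (0.126). Close to TIPARP were CYFIP1, a subunit of the WAVE complex (0.0385), and MAN2B1, a lysosomal mannosidase (0.0393). CYP1B1 was closest to RHNO1, a protein of the DNA damage checkpoint (0.0436), HIGD2A, an assembly factor of the respiratory chain (0.0466), and AMMECR1L (0.0565). The nearest genes of CYP1B1 and TIPARP lay closer than those of AHR and AHRR, and CYP1B1 and TIPARP also varied less between the groups.

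The chaperone complex and the partners of AHR moved unequally. All 6 genes described from this list were tested. ARNT, the target of the shARNT hairpin, is 1 of them, so the design fixed its lower call in the comparisons with shARNT. The counts and medians below include it. In shARNT against shControl 3 were higher and 3 lower (median log2 fold change 0.03, against -0.0072 for all genes). In shBMAL1 against shControl 1 was higher, 4 lower and 1 not called (median -0.14, against -0.0015 for all genes), and between the depletions 3 were higher and 3 lower (median 0.17, against -0.0099). Over all genes tested, 81.8%, 63.3% and 81.2% were called in these comparisons, in the same order, and the list had no test of its own.

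HSP90AA1, the inducible cytosolic HSP90, stood at 516 to 556 CPM for shControl, 541 to 567 CPM for shBMAL1 and 1169 to 1291 CPM for shARNT. Only the shARNT libraries were apart, and HSP90AA1 rose 2.33-fold there (log2 fold change 1.22, SE 0.0418, edgeR adjusted p = 4.71e-16), while in shBMAL1 its log2 fold change was 0.04 (adjusted p = 0.465, and 0.0783 with library size alone). HSP90AB1, the constitutive form, had a log2 fold change of -0.25 in shARNT (SE 0.0311, edgeR adjusted p = 4.07e-07) and -0.10 in shBMAL1 (SE 0.0311, adjusted p = 0.00824), and with library size alone neither was called (adjusted p = 0.769 and 0.140) and the sign between the depletions turned from -0.15 to 0.045. Both HSP90 genes have near-identical pseudogenes, so their counts are uncertain. PTGES3, which encodes p23, rose 2.08-fold in shARNT (log2 fold change 1.06, SE 0.0570, edgeR adjusted p = 7.02e-13) and 1.17-fold in shBMAL1 (0.23, SE 0.0580, adjusted p = 0.00220).

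CUL4B, the scaffold of a ubiquitin ligase that AHR can join, rose by 0.30 on the log2 scale in shARNT (SE 0.0464, edgeR adjusted p = 7.00e-06) and fell by 0.18 in shBMAL1 (SE 0.0472, adjusted p = 0.00275). ARNT2, a relative of ARNT that can also pair with AHR, fell to 40.8% of control in shARNT (log2 fold change -1.29, SE 0.0863, edgeR adjusted p = 2.35e-11). In shBMAL1 ARNT2 was at -0.18 (SE 0.0818, edgeR adjusted p = 0.0677). That call was lost with library size alone (adjusted p = 0.180), and without replicate 1 or 3 of shControl or replicate 2 or 3 of shBMAL1 (-0.19 to -0.12, adjusted p = 0.104 to 0.275).

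**Figure D4:**
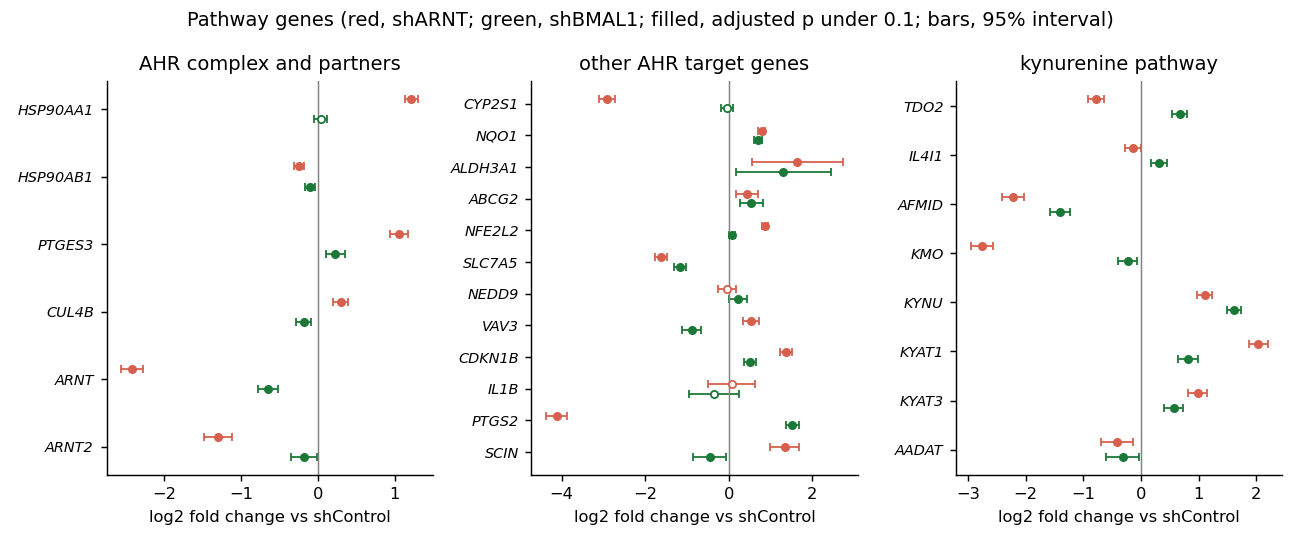
Log2 fold change against shControl (horizontal axis) in shARNT (red) and shBMAL1 (green). The genes are those tested of the AHR complex and partners, the other AHR target genes and the kynurenine list. Bars are 95% intervals, and filled circles passed an adjusted p under 0.1. ARNT (the target of that hairpin), PTGS2, CYP2S1, KMO and AFMID lie farthest below 0 in shARNT, and PTGS2 lies on opposite sides of 0 in the depletions. Library size alone turns the sign of NEDD9 and IL4I1 in shARNT and of CYP2S1 in shBMAL1.

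Other genes known as AHR targets in some tissues went in both directions. Of 19 such genes 12 were tested. In shARNT against shControl 7 were higher, 3 lower and 2 not called (median log2 fold change 0.48, against -0.0072 for all genes). In shBMAL1 against shControl 7 were higher, 3 lower and 2 not called (median 0.15, against -0.0015), and between the depletions 5 were higher, 4 lower and 3 not called (median 0.21, against -0.0099). The share called over all genes tested was 81.8%, 63.3% and 81.2% in these comparisons, in the same order, and the list had no test of its own. CYP1A2, EREG, GSTA1, GSTA2, SERPINB2, UGT1A1 and UGT1A6 did not pass the filter. Library size alone turned the sign of NEDD9 in shARNT, of CYP2S1 in shBMAL1 and of ABCG2 between the depletions. Many of these genes answer to other factors too.

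PTGS2, the inducible cyclooxygenase of prostaglandin synthesis, had the largest differences of the list. Its level was 24.7, 21.3 and 22.6 CPM in shControl, 70.0, 66.5 and 60.9 CPM in shBMAL1, and 1.51, 0.936 and 1.49 CPM in shARNT. The groups did not overlap, and PTGS2 fell to 5.76% of control in shARNT (log2 fold change -4.12, SE 0.120, edgeR adjusted p = 3.48e-17) but rose 2.88-fold in shBMAL1 (1.53, SE 0.0779, adjusted p = 1.84e-12). CYP2S1, a further cytochrome P450 of the AHR response, stood at 26.3 to 29.0 CPM for shControl, 26.4 to 28.2 CPM for shBMAL1 and 3.33 to 4.21 CPM for shARNT. It fell to 13.3% of control in shARNT (log2 fold change -2.91, SE 0.0899, edgeR adjusted p = 8.17e-17) and was not called in shBMAL1, at -0.04 with a 95% interval from -0.19 to 0.11 (adjusted p = 0.666) and at 0.01 with library size alone.

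SLC7A5, the large neutral amino acid transporter that also carries kynurenine, fell to 32.4% of control in shARNT (edgeR adjusted p = 6.78e-15) and to 44.5% in shBMAL1 (adjusted p = 6.61e-12). NQO1, a quinone reductase that answers to both AHR and NRF2, rose 1.72-fold in shARNT (edgeR adjusted p = 1.89e-12) and 1.62-fold in shBMAL1 (adjusted p = 6.60e-11). CDKN1B, the cell cycle inhibitor p27, rose 2.60-fold in shARNT (edgeR adjusted p = 1.78e-13) and 1.42-fold in shBMAL1 (adjusted p = 3.83e-06). These genes thus moved in the same direction in both comparisons with the shared control.

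The remaining 2 named targets went opposite ways. VAV3, a guanine nucleotide exchange factor, rose 1.45-fold in shARNT (edgeR adjusted p = 3.58e-05) and fell to 54.0% of control in shBMAL1 (adjusted p = 4.22e-07). SCIN, the actin-severing protein scinderin, rose 2.54-fold in shARNT (edgeR adjusted p = 3.38e-07). In shBMAL1 SCIN was at 72.7% of control (log2 fold change -0.46, adjusted p = 0.0452), and that call was lost without replicate 3 of shControl (-0.36, adjusted p = 0.164) or replicate 3 of shBMAL1 (-0.31, adjusted p = 0.196).

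Tryptophan breakdown by the kynurenine pathway yields several AHR ligands. A list of 10 genes was written for it, and 8 of these were tested. The list is not the whole pathway, and it also holds IL4I1, an amino acid oxidase outside the kynurenine pathway. In shARNT against shControl 3 were higher and 5 lower (median log2 fold change -0.28, against -0.0072 for all genes). In shBMAL1 against shControl 5 were higher and 3 lower (median 0.44, against -0.0015), and between the depletions 2 were higher, 5 lower and 1 not called (median -0.48, against -0.0099). Of all genes tested, 81.8%, 63.3% and 81.2% were called in these comparisons, in the same order, and the list had no test of its own. IDO1 and IDO2, which open the pathway in immune settings, did not pass the filter. Library size alone turned the sign of IL4I1 in shARNT and of AADAT between the depletions.

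TDO2, the other dioxygenase that opens the pathway, stood at 24.4 to 25.9 CPM for shControl, 37.7 to 41.4 CPM for shBMAL1 and 13.8 to 15.4 CPM for shARNT. Without overlap of the groups, TDO2 rose 1.59-fold in shBMAL1 (edgeR adjusted p = 2.01e-08) and fell to 58.5% of control in shARNT (adjusted p = 1.66e-09). AFMID, the formamidase of the next step, fell to 21.5% of control in shARNT (edgeR adjusted p = 5.73e-15) and to 37.9% in shBMAL1 (adjusted p = 2.40e-11). KMO, the monooxygenase that consumes kynurenine, fell to 14.9% in shARNT (edgeR adjusted p = 3.28e-16) and to 85.3% in shBMAL1 (adjusted p = 0.0184).

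KYNU, the kynureninase, rose 2.15-fold in shARNT (log2 fold change 1.10, SE 0.0588, edgeR adjusted p = 6.26e-13) and 3.04-fold in shBMAL1 (1.61, SE 0.0591, adjusted p = 1.17e-14). KYAT1, an aminotransferase that turns kynurenine into kynurenic acid and is named here after its values were seen, had the largest rise of the 8 tested genes in shARNT, at 4.09-fold (edgeR adjusted p = 2.92e-15), and rose 1.76-fold in shBMAL1 (adjusted p = 4.82e-08). No metabolite was measured in these samples.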

How the data were processed

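Transcript levels were measured by RNA sequencing of 9 stranded mRNA libraries from A498 cells. Per the study's methods, paired-end reads of 100 bases from a BGISEQ-500 instrument were aligned to GRCh37 with SeqMan NGen, and ArrayStar exported total reads per gene. The submitters' processing notes name hg38, STAR and DESeq2 instead, and which set produced the table was not settled. The deposited values were expected counts, made by the authors without normalization, in a table of 27716 rows. A value of 0.05 stood for no reads and was set to 0, and values were rounded. Rows of 43 repeated names were summed, and 28 rows named by dates were kept as they are. None of the 5 members had a fractional value. The annotation release, the treatment of reads with several alignments, strand use and the choice of reads or pairs are not given in the sources used here.

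Tests used edgeR 4.0.16 in R 4.3.3 (glmQLFit and glmQLFTest, TMM, filterByExpr) on all 9 libraries with group as the only term. P-values were adjusted over all 15551 genes by the Benjamini-Hochberg method, and genes were called under 0.1. The common dispersion was 0.00311. The alternatives were DESeq2 1.42.0, other scalings, no filter, a minimum fold of 1.5, halved counts, only the groups compared, a replicate block and leaving out each library. The computation was tested on simulated data. Replicates differed by more than sampling noise and none were merged. They are labelled biological replicates, with nothing on separate infections, so p-values measure the spread between these samples.

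The members were given by name, the lists come from textbook knowledge, and both were chosen with earlier results of these data known. Named genes were the 5 members, the shRNA targets, all genes of the AHR complex list, and the 4 genes (2 for the kynurenine list) with the largest absolute log2 fold change per contrast among called genes with a mean of at least 1 CPM in the higher group. They also included the 3 genes most like each member by the root mean square difference of centred log2 CPM. Further genes of this rule are not reported here, and the AHR complex list was counted without the one it held. Positions and lengths came from GENCODE 44 on GRCh37, and promoters from RefSeq on GRCh38.p14, where 4 of 5 members matched.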

Additional observations from a re-analysis of the deposited data

Results flagged for a closer look

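The depletions were set against each other in the fit of all 9 libraries, where shControl contributed to scaling, filter and spread only. The values below are log2 fold changes of shARNT against shBMAL1 with an edgeR adjusted p under 0.1. Among the members, AHR was at -1.12, AHRR at 1.46 and TIPARP at -0.42, so the effects of the depletions on these 3 genes differed by a test of the difference itself. The targeted genes were at 2.25 for BMAL1 and -1.77 for ARNT.

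In the AHR complex, HSP90AA1 was at 1.18, PTGES3 at 0.83, CUL4B at 0.48 and ARNT2 at -1.11. HSP90AB1 was at -0.15 and turned to 0.045 with library size alone. Among the other targets, PTGS2 was at -5.64, CYP2S1 at -2.87, SLC7A5 at -0.46, CDKN1B at 0.87, VAV3 at 1.43 and SCIN at 1.80. NQO1 was at 0.090, and its call was lost in the fit of the 2 groups alone (adjusted p = 0.114) and without replicate 1 or 2 of shBMAL1 or replicate 2 or 3 of shARNT (0.06 to 0.10, adjusted p = 0.109 to 0.293). In the kynurenine pathway, KMO was at -2.52, AFMID at -0.82, KYNU at -0.51 and TDO2 at -1.45.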

How the results depend on the processing

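Each log2 fold change of the 4 members tested kept its direction and its side of the threshold under DESeq2, DESeq2-type size factors, no filter, halved counts and fits of only the groups compared. The exceptions lay in library size alone, with CYP1B1 in shARNT against shControl at 0.0069 and between the depletions at 0.30, and in the test against a minimum fold of 1.5. Under that minimum, AHR in shARNT (0.55), AHRR in shBMAL1 (0.77), CYP1B1 in shARNT and shBMAL1 (-0.23 and -0.34) and TIPARP in shARNT, shBMAL1 and between the depletions (-0.62, -0.20 and -0.42) were no longer called, since the test asks for a larger change. It left 1 member called in each comparison with shControl, and 6965, 2111 and 6831 genes in shARNT against shControl, shBMAL1 against shControl and between the depletions.

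Leaving out each library in turn changed no call of a member. The log2 fold change of AHR ranged from 0.52 to 0.58 in shARNT and from 1.65 to 1.71 in shBMAL1, and that of AHRR from 2.13 to 2.38 and from 0.68 to 0.93. Same-numbered libraries did not deviate together (correlations of -0.041 to 0.075), and the replicate block changed no member call, with AHR at 0.55 and 1.67 and 12683 genes called in shARNT against shControl. Among the other named genes, library size alone turned HSP90AB1 between the depletions to 0.045. With at most 12 counts per library, depth limits CYP1A1.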
